A study of Homo sapiens with 2 samples.

Results

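PCDH10, CYP1B1, SERPINE2, GABRB2, APLNR and SPATA16 are 6 genes that share no protein family but were linked, in earlier results of these same data, to the early primitive streak genes MIXL1 and EOMES. They were taken by symbol from the 33538 genes of the count tables, and each matched 1 gene identifier. Transcripts were counted in single human embryonic stem cells (hESCs) of the established line H1, in 1 library labelled here WT and 1 library labelled here GATA3 KO. The WT cells carried the cell line label H1 and no described modification. The GATA3 KO cells carried the cell line label KO-GATA3-06 and came from a single clone, targeted at GATA3 with Cas9, out of H1 cells that bear an inducible cassette for Cas9. Genotype, clone and cassette therefore differed together and cannot be told apart. Both libraries had been grown on Matrigel in mTeSR1 medium with bone morphogenetic protein 4 (BMP4) at 50 ng/ml for 48 h. The protocol text of the WT library gives a shorter exposure, but 48 h stands in both its title and its duration field. There was 1 library per group, so no value below has a replicate, no test was made, and every interval (95%) covers counting error only. Because the genes were chosen by their levels in these libraries and by their relation to MIXL1 and EOMES, all of their values are given as descriptions.

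The primitive streak is the site of the early embryo where epiblast cells leave the epithelium and become mesendoderm, the common source of mesoderm and endoderm. BMP4 can drive hESCs along this route or towards extra-embryonic fates, and the transcription factors MIXL1 (a homeodomain protein), EOMES (a T-box protein) and TBXT mark cells that take it. PCDH10 is a delta-protocadherin, a cell-surface adhesion protein of the cadherin superfamily. SERPINE2, also called protease nexin-1, is a secreted inhibitor of thrombin, urokinase and other serine proteases. CYP1B1 is a cytochrome P450 monooxygenase that oxidises steroids, retinoids and xenobiotics and is a classical target of the aryl hydrocarbon receptor. GABRB2 encodes a beta subunit of the GABA-A receptor, a chloride channel, and APLNR encodes the G-protein-coupled receptor for apelin (APLN) and for APELA, a peptide hormone of the early embryo. SPATA16 encodes a protein of the spermatid acrosome and is known from the testis.

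Promoter sequences were read from RefSeq (GRCh38.p14) as the 250 bases before each annotated start. The table held 2 starts of SERPINE2 and 1 each of GABRB2, MIXL1 and EOMES. It held none of PCDH10, CYP1B1, APLNR and SPATA16, so the promoters of these genes were left out. It was searched on both strands for 6 motifs named after factors of this stage: the T-box half-site AGGTGTGA, the GATA motif AGATAA, the homeodomain motif TAATTA, the SMAD palindrome GTCTAGAC, the SMAD element CAGAC and the FOXH1 motif AATNCACA. None of these motifs contains another. Only 3 matches were found, and each is printed within 30 bases read 5′ to 3′ along the strand of the gene, with the matching letters in capitals.
GABRB2, SMAD element, minus strand, chr5:161546941-161546970: accgaaacttacCAGACgctgtagttattt
MIXL1, SMAD element, plus strand, chr1:226223516-226223545: ttattccccggcGTCTGgcggggccggggg
MIXL1, FOXH1 motif, plus strand, chr1:226223414-226223443: aTGTGGATTgcgccgtccgggcgggtgggc
The SMAD element began 233 bases before the start of GABRB2 and, in its reverse complement, 136 bases before that of MIXL1. It is a short motif that 38.0% of 35116 promoters of this length held, against 2.89% for the FOXH1 motif, 9.17% for the GATA motif, 4.35% for the homeodomain motif, 0.786% for the T-box half-site and 0.182% for the SMAD palindrome. The windows of SERPINE2 and EOMES held none of the 6 strings of letters. A match is a string of letters and not evidence of binding.

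The deposited tables held 3802 cells in the WT library and 6221 in the GATA3 KO library, with 200569649 and 284280464 unique molecular identifiers (UMIs, counts of single captured transcripts). Cells with at most 7500 detected genes and at most 25% mitochondrial counts were used, which left 2519 and 4450 cells with median depths of 44415 and 43131.5 UMIs. Only 8 cell barcodes occurred in both libraries. GATA3 itself stood at 12.7 counts per 1000000 UMIs (CPM) in the WT library and 10.9 CPM in the GATA3 KO library, and since these counts sample the 3′ end of a transcript, that level does not check the label. Pluripotency markers were present in both libraries, with a UMI of POU5F1 in 99.91% and 99.78% of cells at equal depth.

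Each of the 6 genes was lower in the GATA3 KO library. Levels are UMIs summed over the kept cells and given as CPM, and differences are log2 of (CPM + 1) in GATA3 KO over WT, a scale that understates differences of sparse genes. On that scale the 6 genes lay between -4.13 and -1.64 with a median of -3.10, while the median was 0.07 over the 13510 genes that reached 1 CPM in one or both libraries. All 6 genes were at -1 or less, as were 2.27% of those 13510 genes. Nothing is read from the 2 shares side by side, since this contrast was used to choose the genes.

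The adhesion gene PCDH10 (ENSG00000138650, chr4:133149294-133208606, plus strand of GRCh38) stood at 81.7 CPM in WT (interval 80.0 to 83.5) and 3.72 CPM in GATA3 KO (3.44 to 4.02). That was a 22.0-fold lower level (20.3 to 23.8) and a log2 difference of -4.13, rank 5 from the lowest of the 13510 genes. MIXL1, at 136 and 3.999 CPM, stood at -4.77, and EOMES, at 68.1 and 6.33 CPM, stood at -3.24.

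SERPINE2 (ENSG00000135919, chr2:223975045-224039318, minus strand), the protease inhibitor, supplied most of the UMIs of the 6 genes. It stood at 543 CPM in WT (538 to 547) and 60.6 CPM in GATA3 KO (59.4 to 61.7), an 8.96-fold lower level and a log2 difference of -3.14. Most of the UMIs of the 6 genes in the GATA3 KO library were SERPINE2 as well.

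The monooxygenase gene CYP1B1 (ENSG00000138061, chr2:38066973-38109902, minus strand) stood at 32.0 CPM in WT (30.9 to 33.2) and 2.21 CPM in GATA3 KO (1.99 to 2.44). The level was 14.5-fold lower (13.1 to 16.2), with a log2 difference of -3.36. CYP1B1 is overlapped on its own strand by the annotated antisense gene of RMDN2, and on the other strand by RMDN2 and CYP1B1-AS1, so some of its reads could belong to RMDN2-AS1.

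The receptor genes were sparser. GABRB2 (ENSG00000145864, chr5:161288429-161549044, minus strand) stood at 15.3 CPM in WT (14.6 to 16.1) and 1.72 CPM in GATA3 KO (1.53 to 1.92), 8.92-fold lower, with a log2 difference of -2.59. The annotation places part of GABRA6 within it on the other strand, and GABRA6 had 0 UMIs in both libraries. APLNR (ENSG00000134817, chr11:57233577-57237250, minus strand) had 233 UMIs in WT and 13 in GATA3 KO, or 2.34 CPM (2.05 to 2.66) and 0.0742 CPM (0.0395 to 0.127). Its level was 31.5-fold lower (18.1 to 60.1) but its log2 difference was only -1.64, because the added 1 CPM exceeds its level in GATA3 KO.

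SPATA16 (ENSG00000144962, chr3:172889357-173141235, minus strand), known from the testis, had 1003 UMIs in WT and 59 in GATA3 KO. Its levels were 10.1 CPM (9.46 to 10.7) and 0.337 CPM (0.256 to 0.434), 29.9-fold lower (23.0 to 39.6), with a log2 difference of -3.05. For all 6 genes the counting intervals of the libraries were far apart, but how much 2 libraries of the same line would differ was not measured. In summed counts, fewer cells with a transcript and fewer transcripts per cell cannot be told apart, which the values per cell given next address.

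**Figure D1:**
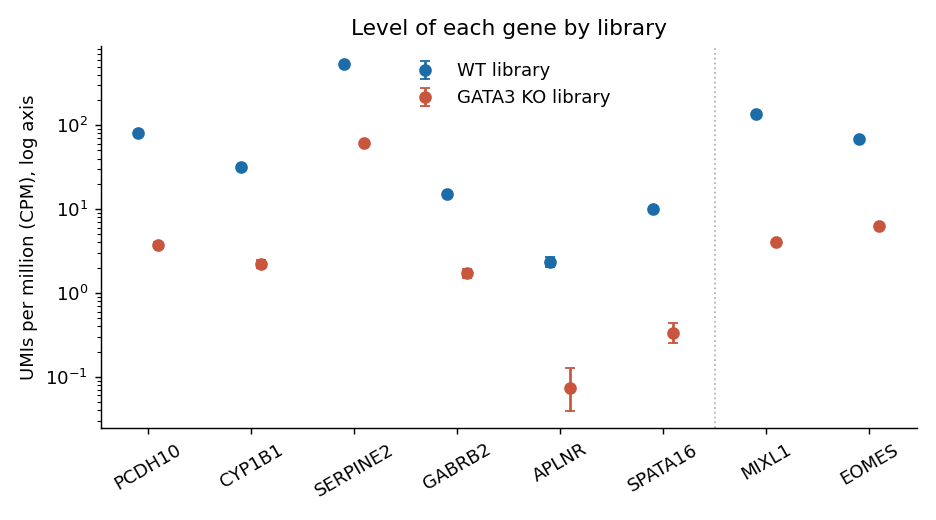
Level of the 6 genes and of MIXL1 and EOMES in each library, in CPM on a log axis, summed over 2519 WT and 4450 GATA3 KO cells, with exact Poisson 95% intervals as bars. Each gene lies lower in the GATA3 KO library, from 81.7 to 3.72 CPM for PCDH10 and from 2.34 to 0.0742 CPM for APLNR. The 3′ counts are not scaled by transcript length, so genes are not compared with each other.

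Detection was compared at equal depth by thinning each cell at random to 10000 UMIs, which 2173 WT and 4038 GATA3 KO cells allowed and which left out 346 and 412 shallower cells. SERPINE2 was detected in 78.4% of WT cells (76.6 to 80.1%) and in 38.8% of GATA3 KO cells (37.3 to 40.4%). PCDH10 was detected in 39.3% and 3.57% of cells, a difference of -35.8 percentage points (-37.9 to -33.6). CYP1B1 was detected in 19.1% and 1.73% of cells, and GABRB2 in 11.6% and 1.76%. SERPINE2 was thus the one gene of the 6 found in most WT cells, and the others were in under 40% of them at this depth. SPATA16 was found in 7.18% of WT cells and 14 of 4038 GATA3 KO cells (0.347%), and APLNR in 37 WT cells (1.70%) and 2 GATA3 KO cells (0.0495%). Without thinning the shares were 53.8% and 9.91% for PCDH10, 90.2% and 75.1% for SERPINE2, 35.5% and 5.91% for CYP1B1, 25.6% and 4.99% for GABRB2, 4.13% and 0.270% for APLNR and 18.0% and 1.10% for SPATA16.

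Cells that held SERPINE2 also held fewer copies of it in the GATA3 KO library. At equal depth a detected cell had a mean of 6.68 SERPINE2 UMIs in WT and 1.49 in GATA3 KO, with maxima of 36 and 13. For PCDH10 the means were 2.01 and 1.12, and for CYP1B1 1.60 and 1.20. A mean near 1 is the least that a detected cell can have, so for these sparse genes the share of cells carries most of the information. APLNR differed from the other genes in how its UMIs were spread. Of its 233 WT UMIs at full depth, 41.2% came from 10 cells, against 3.32% for PCDH10, 2.80% for SERPINE2, 6.08% for CYP1B1, 6.89% for GABRB2 and 11.8% for SPATA16. Without those 10 cells APLNR stood at 1.38 CPM in WT.

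Free RNA in droplets can give a cell UMIs of genes that it does not express, so shares were also taken in cells at the other end of the culture. These were cells with at least 3 SOX2 UMIs of 10000 and none of MIXL1, EOMES or TBXT, a cut on counts rather than a cell type, which held 455 WT cells (20.9%) and 2519 GATA3 KO cells (62.4%) with median depths of 46547 and 44685 UMIs. In the WT cells of this kind SERPINE2 was found in 48.8%, PCDH10 in 8.79%, CYP1B1 in 2.86%, SPATA16 in 1.76%, GABRB2 in 0.659% and APLNR in 0.220%. All 6 shares were under those of the whole WT library. In the GATA3 KO cells of this kind the shares were 35.0% for SERPINE2, 2.42% for PCDH10, 1.23% for CYP1B1, 1.15% for GABRB2, 0.278% for SPATA16 (interval 0.112 to 0.572%) and 0 of 2519 cells for APLNR, which allows a share of up to 0.119%. This class made up 62.4% of the GATA3 KO cells, so the whole library, with SERPINE2 in 38.8% and PCDH10 in 3.57%, is no separate comparison. Free RNA and expression of SPATA16 and APLNR in the GATA3 KO library were not told apart at this depth.

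In the WT library all 6 genes were higher in cells with a MIXL1 UMI than in cells without one. Cells were called by at least 1 MIXL1 UMI in 10000, which 695 of 2173 WT cells had, and levels were taken from their full counts. The log2 difference of (CPM + 1) between the groups had a median of 1.67 over the 6 genes and of -0.01 over 13509 genes. All 6 genes were at 1 or more, as were 1.22% of those genes. This relation was also among the values that chose the genes, so the shares are not set against each other. MIXL1-positive and negative cells had median depths of 48802 and 46445 UMIs and median mitochondrial shares of 11.1% and 11.5%.

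PCDH10 stood at 152 CPM in MIXL1-positive WT cells (147 to 156) and 47.6 CPM in negative cells (45.9 to 49.3), and was detected in 69.9% and 24.97% of them. SERPINE2 stood at 972 and 332 CPM and was detected in 97.3% and 69.6% of cells. CYP1B1 stood at 55.3 and 20.8 CPM, with detection in 34.0% and 12.0%. For these 3 genes many MIXL1-negative cells also held transcripts, so this MIXL1 call did not divide cells with them from cells without. In full counts the negative cells still held MIXL1 at 12.8 CPM, and the part of such missed MIXL1 was not tested.

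GABRB2 was more unequal, at 32.9 CPM (30.9 to 34.9) in MIXL1-positive and 6.67 CPM (6.06 to 7.33) in MIXL1-negative WT cells, a log2 difference of 2.14. SPATA16 stood at 19.6 and 5.42 CPM, a log2 difference of 1.68. The largest log2 difference of the 6, 2.65, was that of APLNR, at 6.50 CPM (5.65 to 7.43) against 0.198 CPM (0.106 to 0.339). Of the 37 WT cells in which APLNR was found at equal depth, 33 held MIXL1.

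**Figure D2:**
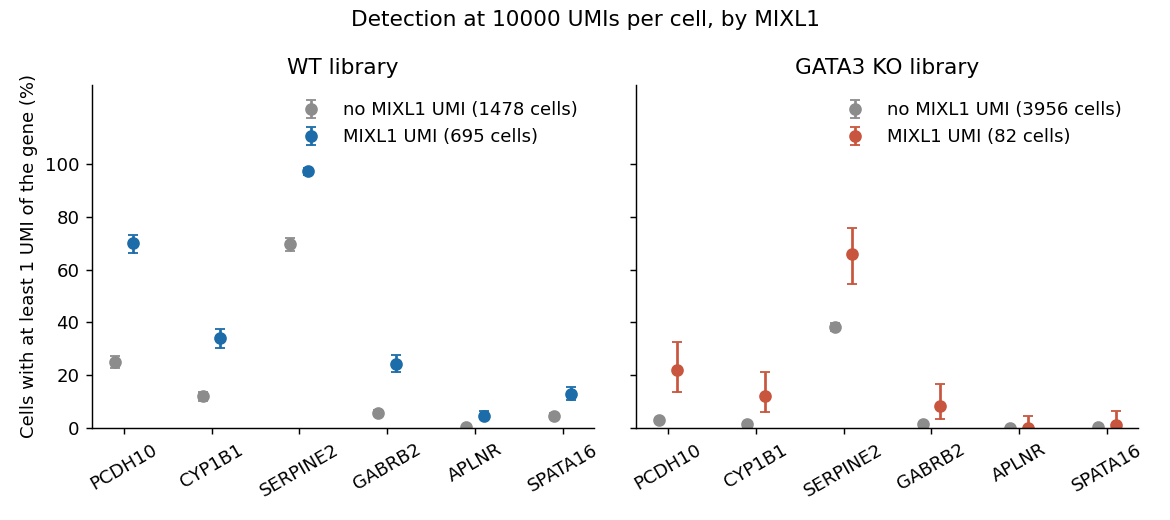
Share of cells with at least 1 UMI of each gene after thinning to 10000 UMIs, in cells with (coloured) and without (grey) a MIXL1 UMI, for the WT library (695 and 1478 cells) and the GATA3 KO library (82 and 3956 cells), with exact Clopper-Pearson 95% intervals as bars. In WT the coloured point lies above the grey point for each gene, from 4.75% against 0.271% for APLNR to 97.3% against 69.6% for SERPINE2.

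EOMES gave the same order of groups in WT. In 664 EOMES-positive and 1509 negative cells the log2 differences were 1.53 for PCDH10, 1.35 for CYP1B1, 1.28 for SERPINE2, 1.85 for GABRB2, 1.55 for APLNR and 1.52 for SPATA16, with a median of 1.53 against -0.01 over all genes. All 6 genes were again at 1 or more, as were 0.948% of the genes measured. MIXL1 and EOMES shared many cells, 450 holding both, 245 MIXL1 alone and 214 EOMES alone, and 1264 neither.

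The separate classes set APLNR apart. They were called after thinning and do not fully separate the markers. In full counts, WT cells with MIXL1 alone still held EOMES at 61.5 CPM, and those with EOMES alone held MIXL1 at 37.2 CPM. APLNR stood at 5.26 CPM (4.001 to 6.78) in WT cells with MIXL1 alone and at 7.15 CPM in cells with both. In cells with EOMES alone it stood at 0.207 CPM (0.0251 to 0.749, 2 UMIs). The last value was like the 0.197 CPM in cells with neither. PCDH10 instead was at 125 CPM with MIXL1 alone, 113 CPM with EOMES alone, 166 CPM with both and 36.3 CPM with neither. CYP1B1 was at 49.4 CPM with MIXL1 alone, 50.6 CPM with EOMES alone, 58.3 CPM with both and 15.7 CPM with neither. SPATA16 followed at 15.3, 13.0, 21.8 and 4.12 CPM in the same order of classes, GABRB2 at 22.7, 16.2, 38.2 and 5.03 CPM, and SERPINE2 at 863, 654, 1029 and 277 CPM. These 5 genes were thus higher in cells with either marker. In summed counts CYP1B1 was at a similar level with MIXL1 or EOMES alone, and SERPINE2 and GABRB2 were higher with MIXL1 alone. The shares of cells with a UMI overlapped between these 2 classes. They were 17.1% (12.6 to 22.5%) and 12.6% (8.48 to 17.8%) for GABRB2, and 95.1% (91.6 to 97.4%) and 93.5% (89.3 to 96.4%) for SERPINE2.

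Levels were then followed with the number of MIXL1 UMIs in the cell. In WT, 1478 cells had 0, 219 had 1, 252 had 2 to 4 and 224 had 5 or more. PCDH10 stood at 47.6, 127, 165 and 159 CPM in these groups, and SERPINE2 at 332, 825, 1064 and 1001 CPM. CYP1B1 at 20.8, 48.0, 60.8 and 55.5 CPM and SPATA16 at 5.42, 15.4, 21.7 and 20.9 CPM had the same shape. These 4 genes were no higher in the cells with most MIXL1 than in those with 2 to 4 UMIs. GABRB2 went on, at 6.67, 20.4, 30.3 and 47.3 CPM. The counting interval of its last group (43.2 to 51.6) lay above that of the group before (27.3 to 33.5). Its shares of cells with a UMI at equal depth overlapped between the same groups, at 29.9% (24.0 to 36.4%) and 25.4% (20.1 to 31.2%). APLNR was at 0.198, 2.26, 1.95 and 15.7 CPM, so that 166 of its 225 UMIs in these cells lay in the 224 cells with most MIXL1.

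**Figure D3:**
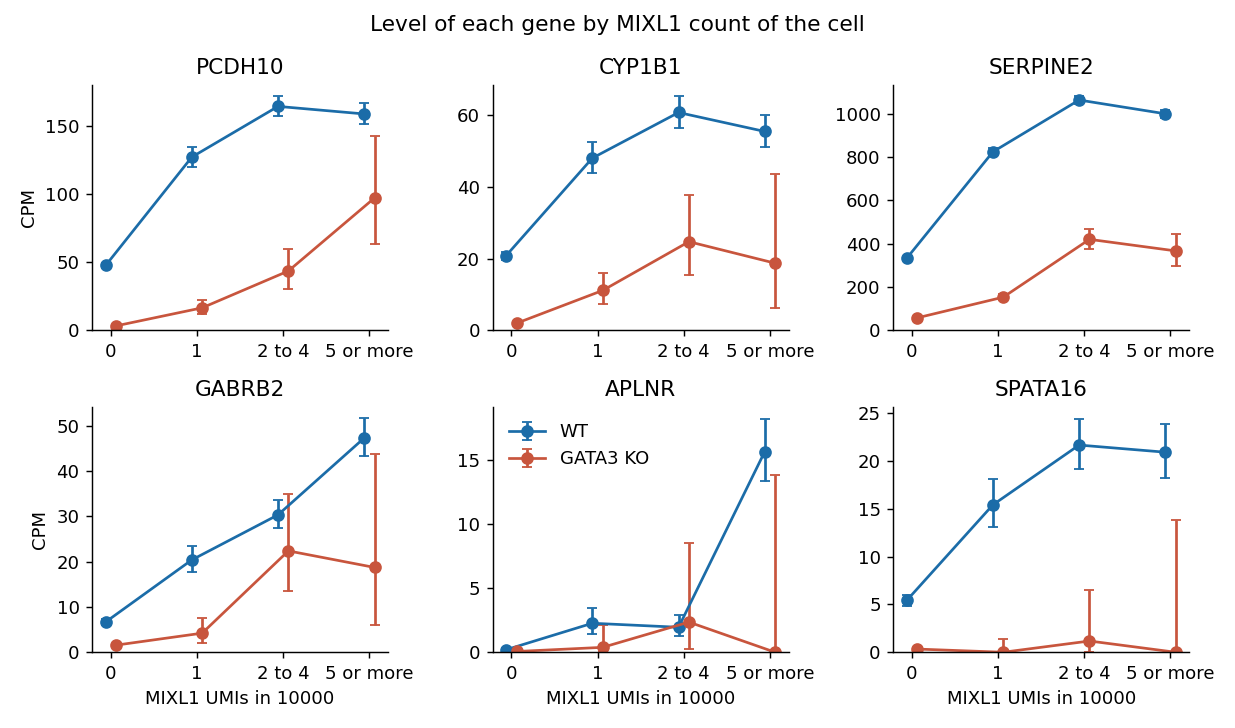
Level of each gene in CPM, on a linear axis of its own, in cells with 0, 1, 2 to 4 and 5 or more MIXL1 UMIs of 10000, in the WT (1478, 219, 252 and 224 cells) and the GATA3 KO library (3956, 59, 17 and 6 cells), with exact Poisson 95% intervals as bars. The WT lines of PCDH10, CYP1B1, SERPINE2 and SPATA16 level off after 2 to 4 UMIs, that of GABRB2 goes on to 47.3 CPM and that of APLNR jumps to 15.7 CPM in the last group.

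The GATA3 KO library had few cells with either marker, 82 of 4038 with MIXL1 and 188 with EOMES. Within it 4 of the 6 genes were higher in those cells by a log2 difference of 1 or more. PCDH10 stood at 28.4 CPM (23.3 to 34.4) in MIXL1-positive and 3.17 CPM (2.91 to 3.45) in MIXL1-negative GATA3 KO cells, a log2 difference of 2.82. CYP1B1 stood at 14.7 and 1.93 CPM (2.42), SERPINE2 at 229 and 56.9 CPM (1.99) and GABRB2 at 9.38 and 1.56 CPM (2.02). These 4 genes were at a log2 difference of 1 or more, as were 1.07% of 13509 genes in this library. The remaining genes rest on a handful of UMIs. APLNR had 3 UMIs in MIXL1-positive and 10 in negative cells, a log2 difference of 0.77 with an interval of 0.13 to 1.47. SPATA16 had 1 and 57, a log2 difference of -0.07 with an interval of -0.41 to 0.90. With EOMES the log2 differences in GATA3 KO were 2.24 for PCDH10, 1.41 for CYP1B1, 1.38 for SERPINE2 and 1.20 for GABRB2, and 0.35 for APLNR and 0.15 for SPATA16. Again 4 of the 6 were at 1 or more, with 0.822% of the genes measured.

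Cells with MIXL1 or EOMES held most UMIs of the 6 genes in WT but not in GATA3 KO, where such cells were few. Of the UMIs of all genes, they held 43.1% in WT and 6.31% in GATA3 KO. In WT, cells with MIXL1 or EOMES made up 41.8% of the thinned cells and held 74.9% of the PCDH10 UMIs, 72.3% of those of CYP1B1, 71.1% of those of SERPINE2, 81.4% of those of GABRB2, 76.9% of those of SPATA16 and 95.1% of those of APLNR. In GATA3 KO such cells made up 5.99% and held 30.2%, 23.2%, 15.8%, 20.6% and 6.90% of the UMIs of PCDH10, CYP1B1, SERPINE2, GABRB2 and SPATA16, and 30.8% of the 13 UMIs of APLNR. For SPATA16 this share was about the share of cells, and for PCDH10, CYP1B1, SERPINE2 and GABRB2 it exceeded the share of cells.

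The lower level in GATA3 KO was also present among cells with neither marker. In the 1264 WT and 3796 GATA3 KO cells without a MIXL1 or EOMES UMI of 10000, PCDH10 stood at 36.3 and 2.76 CPM, a log2 difference of -3.31. SERPINE2 stood at 277 and 54.5 CPM (-2.32), CYP1B1 at 15.7 and 1.81 CPM (-2.57), SPATA16 at 4.12 and 0.332 CPM (-1.94) and GABRB2 at 5.03 and 1.47 CPM (-1.29). APLNR had only 11 and 9 UMIs there (-0.18). So 5 of the 6 genes were at -1 or less, as were 1.47% of 13510 genes, and the median of the 6 was -2.13 against -3.10 over all kept cells.

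Thinning leaves cells with few MIXL1 or EOMES transcripts among those called negative, and in these cells MIXL1 itself still stood at 8.58 CPM in WT and 0.768 CPM in GATA3 KO. Among the 865 WT and 3462 GATA3 KO cells with 0 UMIs of both markers at full depth, of like median depth (43941 and 43933.5 UMIs), the differences were smaller. PCDH10 stood at 14.6 and 2.32 CPM (-2.23), CYP1B1 at 6.91 and 1.55 CPM (-1.64), SERPINE2 at 153 and 50.4 CPM (-1.58) and SPATA16 at 2.21 and 0.253 CPM (-1.36). GABRB2, at 2.18 and 1.18 CPM, was at -0.55 with an interval of -0.80 to -0.29. The size of the difference thus depended on how strictly marker-free cells were defined.

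Cells with a marker differed between the libraries as well. Among MIXL1-positive cells (695 WT and 82 GATA3 KO) the log2 differences were -2.38 for PCDH10, -2.08 for SERPINE2, -1.84 for CYP1B1, -1.71 for GABRB2, -2.06 for APLNR and -4.02 for SPATA16, all 6 at -1 or less, with 3.47% of 13510 genes. Among EOMES-positive cells (664 and 188) they had a median of -2.73, again with all 6 at -1 or less and 2.82% of the genes. The marker-positive cells were not equal, since MIXL1 stood at 385 CPM in the MIXL1-positive WT cells and 138 CPM in those of GATA3 KO. The part of that inequality in the differences was not tested.

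**Figure D4:**
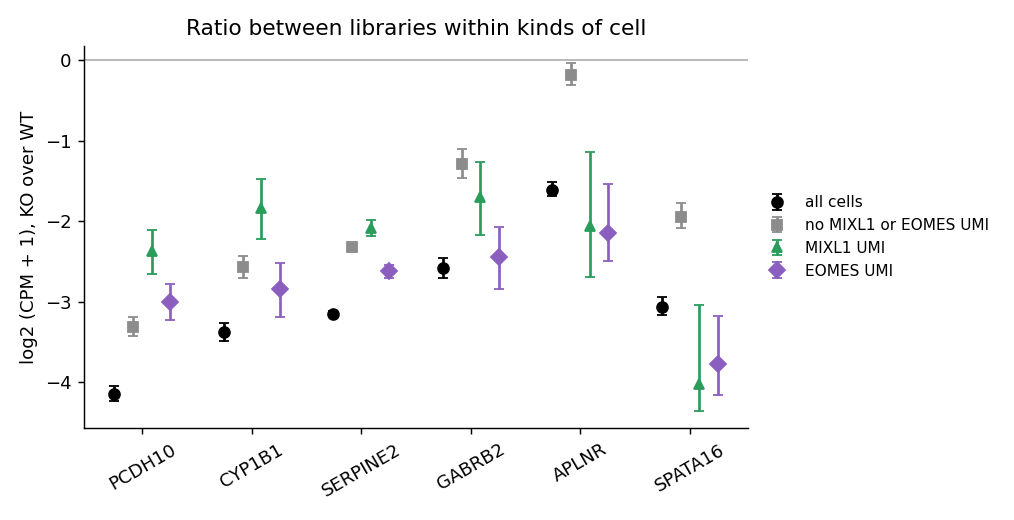
Log2 of (CPM + 1) in GATA3 KO over WT for each gene in all thinned cells, in cells with neither MIXL1 nor EOMES, and in MIXL1-positive and EOMES-positive cells, with exact binomial 95% intervals as bars and 0 as no difference. Points lie below 0 for each gene in each kind of cell, and those of cells with neither marker lie nearer to 0 than those of all cells.

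Within the WT library the genes were also found together. Correlations were taken over 2173 thinned cells on log counts as a description, and sparse counts hold such values low. PCDH10 and SERPINE2 had the highest Pearson correlation among the 6 genes, 0.55, and 821 of the 855 cells with PCDH10 also held SERPINE2. SERPINE2 correlated with MIXL1 at 0.51, rank 3 among 9393 genes of at least 5 CPM, and with EOMES at 0.44, rank 2 among them. PCDH10 correlated with MIXL1 at 0.43 and with EOMES at 0.42. CYP1B1 and SERPINE2 stood at 0.36, and GABRB2 and MIXL1 at 0.30. APLNR and SPATA16 did not go together (0.00), with 2 cells that held both. In the GATA3 KO library, over 4038 cells, the value for PCDH10 and SERPINE2 was 0.14, for SERPINE2 and MIXL1 0.19, and for PCDH10 and MIXL1 0.18.

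The 3 genes most like each of the 6 over WT cells showed the same grouping. SERPINE2 was most like GAL, which encodes the neuropeptide galanin (0.68, and 0.19 in GATA3 KO), followed by HEBP2, a haem-binding protein (0.55), and PCDH10. PCDH10 was most like SERPINE2, GAL (0.47) and MIXL1, and CYP1B1 was most like SERPINE2, GAL (0.32) and PCDH10 (0.31). GABRB2 was most like MIXL1, SERPINE2 (0.29) and EOMES (0.28). SPATA16 was most like SERPINE2 (0.26) and the transcripts AL353751.1 (0.26) and LINC00458 (0.25). GAL stood at 1369.8 CPM in WT and 382 CPM in GATA3 KO, a log2 difference of -1.84. APLNR had other partners. These were MESP1, a transcription factor of nascent mesoderm (0.45), GATA6, a transcription factor of endoderm and heart mesoderm (0.34), and the ligand BMP2 (0.31). With MESP1, APLNR stood at 0.00 in GATA3 KO, where only 2 of 4038 thinned cells held APLNR and 13 held MESP1. So few cells cannot show whether the 2 genes went together there.

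Levels by other marker genes placed APLNR more closely. In the 128 WT cells with a MESP1 UMI of 10000 it stood at 28.3 CPM (24.2 to 33.0), against 0.650 CPM in the other WT cells, and these cells held 165 of its UMIs. It stood at 17.4 CPM in cells with GSC and 15.3 CPM in cells with CER1, both genes of the anterior streak. It stood at 16.8 CPM (12.9 to 21.5) in 94 cells with HAND1, a gene of amnion, trophectoderm and lateral mesoderm. At equal depth APLNR was found in only 7 of these 94 cells (7.45%, 3.05 to 14.7%), so a few cells could carry this level. How far they were also cells with MESP1 was not tested. In the cells with HAND1, PCDH10 was at 51.7 CPM, under its 83.4 CPM in cells without HAND1. The other genes listed for amnion or trophectoderm did not share the APLNR value, with APLNR at 2.58 CPM in cells with TFAP2A against 2.25 CPM without, and at 2.06 CPM with ISL1 against 2.30 CPM without. PCDH10 was at 97.0 CPM with TFAP2A against 80.2 CPM without, and at 52.9 CPM with ISL1 against 83.1 CPM without. In the GATA3 KO library only 13 cells held MESP1, and they had 0 APLNR UMIs, which allows up to 5.33 CPM. APLNR is known from vessels, but the endothelial markers CDH5 and PECAM1 were found in 0 of 2173 thinned WT cells each, while KDR was found in 47.4%.

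With TBXT, the further streak marker, all 6 genes were higher than in WT cells as a whole. In the 360 WT cells with TBXT, PCDH10 stood at 162 CPM, SERPINE2 at 1014 CPM, CYP1B1 at 64.4 CPM, GABRB2 at 30.9 CPM and SPATA16 at 19.4 CPM. APLNR stood at 8.49 CPM with TBXT and 1.04 CPM without, a log2 difference of 2.22 (1.95 to 2.47), the largest of the 6 genes. SPATA16 was at 20.1 CPM in the cells with MESP1. GABRB2 reached 44.3 CPM with CER1 and 43.5 CPM with GSC. All 6 genes were also higher in the 68 WT cells with SOX17, listed for endoderm, than in the rest. PCDH10 stood there at 143 against 80.2 CPM and SERPINE2 at 904 against 533 CPM. In the 1201 cells with SOX2, kept on in pluripotent and neural cells, PCDH10 stood at 49.7 CPM against 122 CPM in cells without it, SERPINE2 at 315 against 825 CPM, and GABRB2 at 7.29 against 25.2 CPM. NANOG, listed with SOX2 as a pluripotency gene, did not divide the cells in this way, except for APLNR. PCDH10 stood at 86.1 CPM in cells with NANOG and 78.4 CPM in cells without, and CYP1B1 at 35.3 and 29.3 CPM. SERPINE2, GABRB2 and SPATA16 were at log2 differences of -0.06, -0.10 and -0.06. APLNR stood at 1.16 CPM with NANOG and 3.39 CPM without, a log2 difference of -1.02. In 23 cells with the neural gene SOX21 there were 9 UMIs of PCDH10, 56 of SERPINE2 and 0 of CYP1B1, GABRB2, APLNR and SPATA16. For APLNR, at 2.29 CPM over all thinned WT cells, a count of 0 in so few cells does not show a lower level. The genes listed with SOX21, IRX2 (in 489 WT cells) and FEZF1 (in 23), are not described here. Of the germ cell genes, NANOS3 was found in 38 WT cells, where SPATA16 stood at 15.0 CPM against 10.0 CPM in the rest (a log2 difference of 0.54 with an interval of -0.03 to 1.06), and PRDM1 in 40, where it stood at 9.55 CPM against 10.1 CPM (-0.08).

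**Figure D5:**
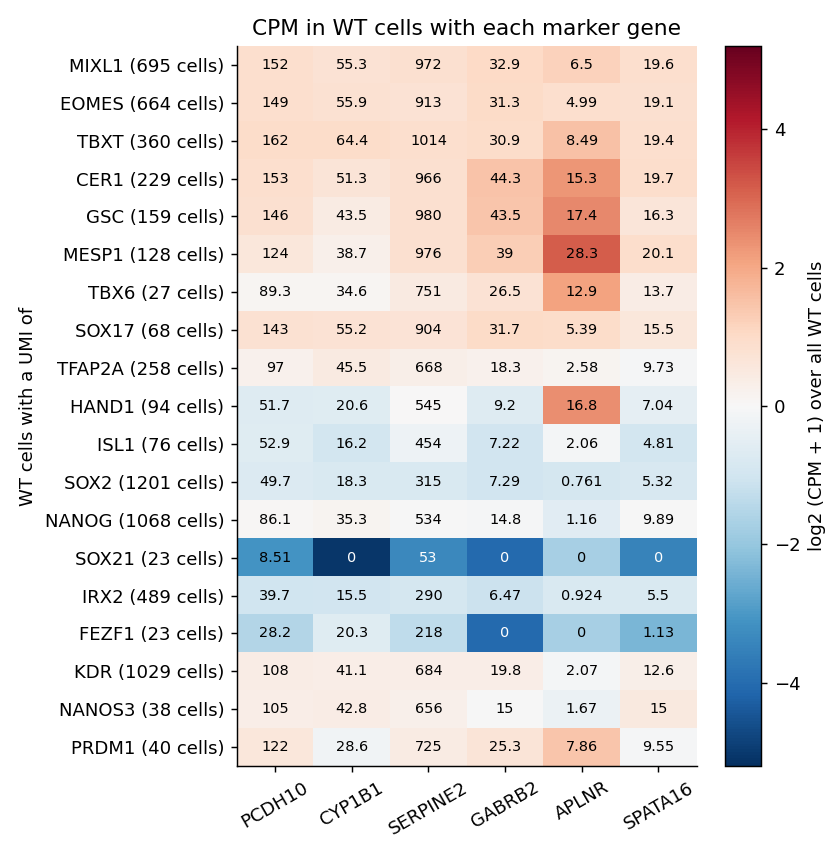
Level in CPM (printed) of each gene in WT cells with at least 1 UMI of 10000 of each marker gene, coloured by log2 of (CPM + 1) over that of all WT cells, with the number of cells in brackets. APLNR is highest with MESP1 (28.3 CPM), and all 6 genes are lower in cells with SOX2 than over all cells.

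Other genes of the same families or pathways were described in 5 lists of 3 to 19 genes, with none for SPATA16. Of their genes other than the 6, 31 reached 1 CPM in one or both libraries, and 2 of these, CDH2 and GAD1, were at -1 or less, beside 2.27% of all 13510 genes. Nothing particular to the lists is read from so few genes. Among delta-protocadherins and classical cadherins, 9 other genes had log2 differences from -1.33 to 1.28. CDH2, or N-cadherin, stood at 65.0 CPM in WT and 25.2 CPM in GATA3 KO (-1.33) and correlated with MIXL1 at 0.37 over WT cells. PCDH1, at 8.13 and 21.2 CPM (1.28), was higher in GATA3 KO, PCDH18 stood at 15.7 and 25.6 CPM (0.67), and E-cadherin (CDH1) at 86.7 and 79.9 CPM (-0.12).

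For CYP1B1, the aryl hydrocarbon receptor (AHR) stood at 1.79 and 1.01 CPM (-0.47), the receptor's partner ARNT at 9.71 and 8.23 CPM (-0.22) and NQO1, another classical target of the receptor, at 47.2 and 50.0 CPM (0.08). TIPARP, a further target, stood at -0.57, and CYP1A1 had 0 UMIs in WT and 5 in GATA3 KO. For SERPINE2, its target protease urokinase (PLAU) stood at 11.3 and 6.79 CPM (-0.66) and the urokinase receptor (PLAUR) at 6.10 and 6.05 CPM (-0.01). The endocytic receptor LRP1, at 24.6 and 32.7 CPM (0.40), and its relative LRP8, at 32.2 and 19.3 CPM (-0.71), had opposite signs.

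Among the genes listed with GABRB2, the receptor subunit GABRA5 stood at 7.27 and 5.51 CPM (-0.34) and GPHN, a scaffold protein of inhibitory synapses, at 3.48 and 4.34 CPM (0.25). GAD1, the enzyme that makes GABA, was at -1 or less like GABRB2, at 15.6 CPM in WT and 2.21 CPM in GATA3 KO (-2.37), with a correlation of 0.28 with MIXL1 over WT cells. For APLNR, the ligand gene APELA stood at 58.0 CPM in WT and 132 CPM in GATA3 KO (1.18), as 2.07% of genes were higher by at least 1, and it correlated with MIXL1 at -0.29 over WT cells. The other ligand gene, APLN, had 12 and 38 UMIs. Ligand and receptor of this pair thus differed in opposite directions between the libraries.

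The 6 genes lie on 5 chromosomes, and their nearest protein-coding neighbours of at least 1 CPM within 1000000 bases were mostly similar between the libraries. PABPC4L, 987727 bases from PCDH10, stood at 3.57 and 0.947 CPM (-1.23). Nearer 0 were MRPL44 next to SERPINE2 (-0.18), ECT2 next to SPATA16 (-0.19), PTTG1 next to GABRB2 (-0.14), ATL2 next to CYP1B1 (-0.56) and TNKS1BP1 next to APLNR (0.40).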

How the data were processed

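The authors prepared 10x Genomics Chromium 3′ v3 libraries, and the deposited matrices hold raw counts of UMIs per gene and cell on GRCh38 (Cell Ranger, with version 3.0.2 in the matrix header), for the barcodes called as cells. Reads shared by overlapping or near-identical genes can be misplaced in such counts. All columns were used as deposited, and groups came from the labels, 1 library each. The genes and the lists around them were chosen with earlier results of these data known, and the SOX2 cut was set with values in view.

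Cells with over 7500 genes or over 25% mitochondrial counts were removed, after the methods of the study. There was no lower limit on genes. Scrublet (scanpy 1.11.5) called 1 of 3802 and 2 of 6221 cells, too few for a caller that works, so doublets were left in. An alternative left out the top-scoring 116 and 310 cells (0.8% per 1000 cells), of which 54 and 170 had passed the limits. Counts were summed per library or kind of cell and given per 1000000 UMIs. Differences are log2 with a pseudocount of 1 CPM, set beside genes that reached 1 CPM in one or both libraries. Shares and marker calls used cells thinned to 10000 UMIs (seed 1), with levels from full counts. Intervals are exact Poisson for CPM, Clopper-Pearson for shares and exact binomial for ratios. For 0 counts the limit is 3 counts. PCR copies are collapsed by UMIs, but cells of 1 library are not replicates. Positions came from GENCODE v44, which placed 33113 of 33538 genes.

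Genes named besides the 6 were MIXL1, EOMES and GATA3, the 3 most correlated genes of each (over WT cells, at least 5 CPM in WT), members of the related lists at 1 CPM or more, cell type markers and nearest neighbours, and some of these are not reported here. Python 3.11.15, numpy 2.4.6, scipy 1.17.1, R 4.3.3 and edgeR 4.0.16 (for its TMM scaling factors only) were used, and the counting steps were tested on simulated data. Other cell filters, scalings, pseudocounts, thinning depths, thresholds and seeds were tried.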

Additional observations from a re-analysis of the deposited data

Results flagged for a closer look

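SPATA16 was the 1 gene of the 6 whose relation to MIXL1 had opposite signs in the libraries, with a log2 difference between MIXL1-positive and negative cells of 1.68 in WT and -0.074 in GATA3 KO. The difference was not tested. It rests on 1 UMI in the 82 MIXL1-positive GATA3 KO cells, and over all deposited cells of that library the value was 0.91.

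The cells removed for more than 7500 detected genes also carried the 6 genes. In the 1012 such cells of the WT library, of a median of 87070.5 UMIs, PCDH10 stood at 75.3 CPM, CYP1B1 at 32.6 CPM, SERPINE2 at 430.0 CPM, GABRB2 at 15.4 CPM, APLNR at 1.46 CPM and SPATA16 at 11.0 CPM. In the 1265 such cells of the GATA3 KO library, of a median of 80099 UMIs, PCDH10 stood at 3.88 CPM, CYP1B1 at 2.24 CPM, SERPINE2 at 52.4 CPM, GABRB2 at 2.44 CPM, APLNR at 0.0579 CPM and SPATA16 at 0.627 CPM. Each gene was lower in the GATA3 KO cells here too, and these cells entered only the alternative that uses all deposited cells.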

How the results depend on the processing

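The medians over the 6 genes and the count at -1 or less kept their sign under all 63 combinations of result and setting. Of these, 42 stayed within the counting interval or, for the count, unchanged. Not all of the 63 could move. A count cannot change sign, and dropping the minimum level reuses the main ratios. A lower limit of 2000 genes left every value that uses thinned cells the same. For the median log2 difference between the libraries (-3.10), the mean of per-cell CPM gave -2.96 and a pseudocount of 0.1 CPM gave -3.80. The median detection difference (-13.6 percentage points) was -8.44 at 5000 UMIs, -21.1 at 20000 UMIs, -18.8 without thinning and -5.15 for at least 2 UMIs. Calling marker cells without thinning gave 2.15 for MIXL1 in WT, 1.39 for MIXL1 in GATA3 KO, 2.06 for EOMES in WT and -1.51 between libraries in cells with neither marker. Calling them at 20000 UMIs gave 1.86 for MIXL1 in WT, 1.82 and 1.53 for EOMES in WT and GATA3 KO, and -1.86 in cells with neither. Calling them by at least 2 UMIs gave 1.502 and 2.88 for MIXL1 in WT and GATA3 KO, 2.05 for EOMES in GATA3 KO, and -2.54 in cells with neither. A pseudocount of 0.1 CPM gave 2.51 and 1.54 for MIXL1 and EOMES in GATA3 KO, and -2.69 in cells with neither. Of 336 values for single genes 331 kept their sign, the other 5 being SPATA16 by MIXL1 in GATA3 KO, at 0.91 over all deposited cells, 0.33 without thinning, 0.22 at 20000 UMIs, 0.51 for at least 2 MIXL1 UMIs and 0.24 with another seed. The pseudocount moves sparse genes most by construction, and the cause of the other moves was not tested. Depth limits APLNR and SPATA16 in GATA3 KO, with 13 and 59 UMIs. No paired analysis was possible because each group had 1 library.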
